A study of Homo sapiens with 4 samples.

Results

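A small set of ectoderm cells held very little mitochondrial RNA. A cell was included when under 1% of its unique molecular identifiers (UMIs, the tags that count single captured RNA molecules) came from genes whose symbol starts with MT-, the genes of the mitochondrial genome. This took 462 of 16360 ectoderm cells, or 2.82% (95% Clopper-Pearson interval 2.58 to 3.09%). They are called low-mitochondrial cells below and are set against the 6619 ectoderm cells with 2.5% to 4%. The cells of both sets were chosen by their share of MT- UMIs, so all values of MT- genes are descriptions and support nothing.

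The ectoderm library came from human pluripotent stem cells that had been infected with lentivirus carrying a pooled guide library with EGFP and with a second lentivirus carrying Cas9 and mCherry, per the labels. The cells were sorted on fluorescence, recovered for 1 week and were induced towards ectoderm, so every cell of the library had passed the same infection and sort. A second library, of cells labelled hPSC with the same infection and sort, is used for the same rule in a library that did not set the choice of cells. Each state is 1 library of 1 named line, the labels name no separate cultures, and no test between samples was possible. Checked by expression, 2 of 2 transcriptome libraries went against the line their labels name. The libraries shared 78 cell barcodes, none of which belonged to the 462 low-mitochondrial ectoderm cells. The ectoderm library held 91249888 UMIs, a median of 4499 per cell, and the hPSC library 83263830 UMIs, a median of 4806 per cell. All intervals are exact 95% intervals and cover counting error only.

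The human mitochondrial genome encodes 13 proteins of the respiratory chain and ATP synthase, 2 ribosomal RNAs and 22 tRNAs, and its RNAs stay inside the organelle. All other mitochondrial proteins, among them most subunits of the respiratory complexes and all proteins of the mitochondrial ribosome, are translated in the cytosol from nuclear transcripts and imported. In single-cell data the MT- share is used as a measure of cell and library quality: a cell with a leaking membrane can lose cytosolic RNA and keep its mitochondria, whereas a bare nucleus has few mitochondria and a high content of nuclear-retained RNAs such as MALAT1.

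The share of MT- UMIs had 1 broad peak with a short second rise at its lowest end. The fullest bin of 0.1 percentage points, from 3.1% to 3.2%, held 493 cells. Below it the bins thinned out to 88 cells between 0.9% and 1.0%, just inside the threshold, against 112 cells between 1.0% and 1.1%, just outside it, so the threshold cut a continuous slope. At the bottom, 44 cells lay under 0.1% and 20 cells between 0.1% and 0.2%. The 44 cells, a group noticed after their values were seen, had a median of 2 MT- UMIs and at most 29, in cells with a median of 5639.5 UMIs. Of these, 7 cells had 0 MT- UMIs. Each of them held between 2170 and 11909 UMIs.

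**Figure D1:**
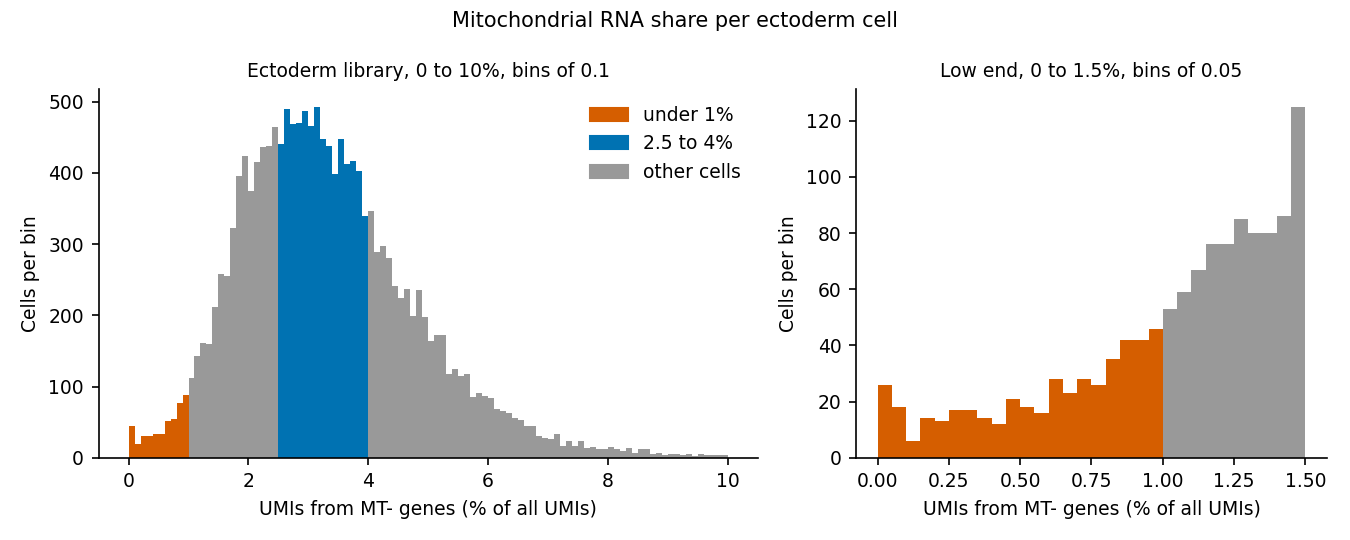
Number of ectoderm cells (y axis) by percent of UMIs from MT- genes (x axis), in bins of 0.1 percentage points up to 10% on the left and of 0.05 up to 1.5% on the right; orange bars are cells under 1%, blue bars cells at 2.5 to 4%, grey bars all others. The orange cells are the lower slope of 1 broad peak, with 44 cells under 0.1% standing above the 20 cells of the next 0.1 points; 44 cells at 10% and over lie outside the left panel.

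The low-mitochondrial cells were not shallow. Their median was 5696.5 UMIs per cell (quartiles 3426.75 and 8824.75), against 4615 UMIs (3352 and 7136) in the cells at 2.5% to 4%. The total of a cell is also the denominator of its MT- share, so depth and share are coupled. The MT- UMIs themselves were also fewer, a median of 30.5 per low-mitochondrial cell against 150 in the cells at 2.5% to 4%. The low-mitochondrial cells had a median of 2227 detected genes against 1978. After thinning every cell to 1500 UMIs outside MT- genes, which left out 0 cells, the medians were 863 genes in low-mitochondrial cells and 877 in the cells at 2.5% to 4%. No cell of the ectoderm library, low-mitochondrial or other, would have been removed by a filter of 1000 UMIs and 500 genes.

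The 13 mitochondrial mRNAs and both ribosomal RNAs were all lower, as the choice of cells required, but not by one common factor. CPM here are UMIs of a gene scaled to 1000000 UMIs outside MT- genes, summed over all cells of a set, and log2 ratios are low-mitochondrial cells over cells at 2.5% to 4%. MT-CO1, the catalytic core subunit of cytochrome c oxidase, stood at 793 CPM in low-mitochondrial cells against 4699 CPM (log2 ratio -2.57, 95% interval -2.62 to -2.51). MT-ND4, a proton-pumping subunit of complex I, stood at 280 against 1957 CPM (-2.80, -2.90 to -2.71). Both genes mark the choice of cells.

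The smallest of the well-counted differences was that of MT-ND3, a small complex I subunit, with 791 UMIs in low-mitochondrial cells and 39086 in the cells at 2.5% to 4% (-2.07, -2.17 to -1.97). The largest were those of MT-ND5, another complex I subunit (82 against 8486 UMIs, -3.13, -3.47 to -2.82), and MT-ATP6, a subunit of the ATP synthase proton channel (697 against 71230 UMIs, -3.11, -3.22 to -3.01). As a share of all MT- UMIs, MT-ATP6 made up 3.86% in low-mitochondrial cells and 5.99% in the cells at 2.5% to 4%, and MT-ND3 made up 4.38% and 3.29%. The most abundant mitochondrial mRNA, MT-CO3 of cytochrome c oxidase, kept nearly the same share, 29.2% against 28.8%. The mRNAs in sum had a log2 ratio of -2.49 and the ribosomal RNAs of -2.34 (-2.41 to -2.26). MT-ATP8, with 3 UMIs in low-mitochondrial cells, was too sparse to place, and the 22 tRNAs held 17 UMIs in low-mitochondrial cells and 493 in the cells at 2.5% to 4%.

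The order of the mitochondrial genes was alike in the hPSC library under the same rule. There MT-ATP6 was again among the lowest (-3.06, -3.24 to -2.88) and MT-ND3 the least low of the mRNAs other than the sparse MT-ATP8 (-1.66, -1.84 to -1.49). Across 13 mitochondrial genes, MT-ATP8 and MT-ND4L left out, the log2 ratio of the share of MT- UMIs had a Pearson correlation of 0.82 and a Spearman correlation of 0.81 between the libraries. This describes genes that share the libraries' chemistry and counting. The ribosomal RNAs differed between the libraries: their sum stood at -2.34 in ectoderm and -1.85 in hPSC (-1.95 to -1.75).

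**Figure D2:**
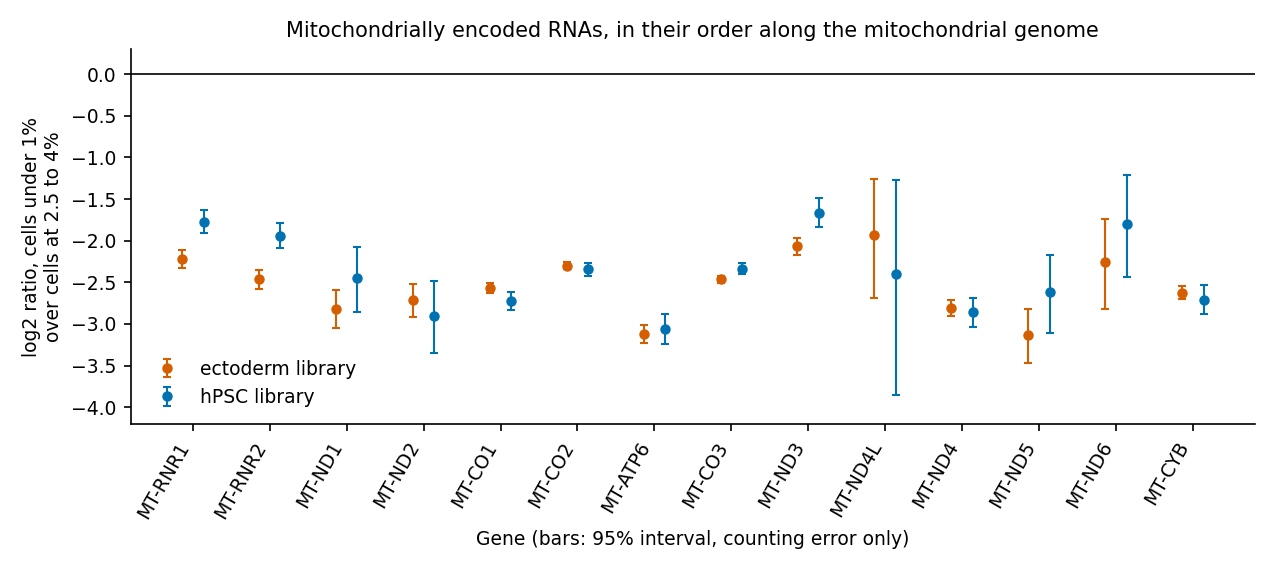
Log2 ratio of CPM, cells under 1% MT- UMIs over cells at 2.5 to 4% (y axis), for mitochondrially encoded mRNAs and ribosomal RNAs in genome order (x axis) in the ectoderm (orange) and hPSC (blue) libraries; bars are 95% intervals for counting error, and MT-ATP8 is left out for its few UMIs. In ectoderm the genes run from -3.13 (MT-ND5) to -1.93 (MT-ND4L), with MT-ATP6 low and MT-ND3 high in both libraries.

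Outside the mitochondrial genome the transcriptome hardly differed. A gene was counted as measured at 20 CPM or more in at least 1 of the cell sets compared and as differing at a log2 ratio of 1 or more in size, that is, 2-fold. Of 5990 measured genes, 0 were higher in low-mitochondrial cells (0%) and 2 were lower (0.0334%), in a comparison of single libraries' cells with no replicate and no test. The median log2 ratio was -0.05, the 5th percentile -0.36 and the 95th percentile 0.21, and 39.1% of the genes were above 0 (50% after centring on the median). For 5960 genes, or 99.5%, the whole counting interval lay within 2-fold. Smaller differences were present: for 22.1% of the genes the interval left out 0, with 487 genes above and 835 below. At a log2 ratio of 0.5 or more in size, 2 genes were higher and 77 lower. The pair of higher ones, named after their values were seen, were PDZD11 (37.3 against 26.04 CPM, 0.52) and the noncoding AC246787.1 (21.3 against 11.4 CPM, 0.90).

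One of the pair that passed the rule is a copy of a mitochondrial gene. MTATP6P1 (ENSG00000248527), an unprocessed pseudogene of MT-ATP6 in a nuclear insertion of mitochondrial DNA on chromosome 1 (GRCh38, 633696 to 634376, plus strand), had 98 UMIs or 32.1 CPM in low-mitochondrial cells against 10756 UMIs or 299 CPM (log2 ratio -3.22, -3.52 to -2.93). MT-ATP6 itself had -3.11. The annotated sequences of both genes are 681 bases long and differ at 10 bases, an identity of 98.5%, so reads of one can be assigned to the other. The stretch from base 73 to base 192 is shown for both, since it holds 4 of the differing bases, printed in capitals, and shows how few positions tell them apart (GENCODE v29 transcripts, read 5′ to 3′).
MT-ATP6: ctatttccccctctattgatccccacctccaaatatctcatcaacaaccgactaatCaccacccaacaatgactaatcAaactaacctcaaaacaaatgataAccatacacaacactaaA
MTATP6P1: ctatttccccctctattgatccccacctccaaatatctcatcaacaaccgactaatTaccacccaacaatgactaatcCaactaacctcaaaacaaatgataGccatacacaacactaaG

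The level of this pseudogene followed the MT- share over its whole range. It stood at 9.62 CPM in cells under 0.5%, 45.5 CPM at 0.5 to 1%, 85.4 CPM at 1 to 1.5%, 166 CPM at 1.5 to 2.5%, 298 CPM at 2.5 to 4%, 509 CPM at 4 to 6% and 799 CPM in cells at 6% and over. In the 44 cells under 0.1%, all mitochondrial pseudogenes together had 0 UMIs. How many of its UMIs are reads of MT-ATP6 was not tested. As it behaves like an MT- gene, it is left out of the comparisons of gene length and of libraries and of the gene counts within clusters below.

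The other gene was NSUN2 (ENSG00000037474, chromosome 5, 6599239 to 6633291, minus strand, GRCh38), which encodes an RNA methyltransferase that places 5-methylcytosine in tRNAs and other RNAs. It had 33 UMIs or 10.8 CPM in low-mitochondrial cells against 801 UMIs or 22.2 CPM (log2 ratio -1.04, -1.59 to -0.54). Its UMIs came from 32 of the 462 low-mitochondrial cells, at most 2 from a single cell. Along the range it stood at 8.75 CPM under 0.5%, 12.04 at 0.5 to 1%, 17.5 at 1 to 1.5%, 16.4 at 1.5 to 2.5%, 22.2 at 2.5 to 4%, 20.7 at 4 to 6% and 18.4 CPM at 6% and over. It passed no longer with low-mitochondrial cells at 0.5 to 1% alone, with cells at 1.5 to 2.5% as the comparison, with every cell weighted equally, with ratios centred on their median, or at a minimum of 50 CPM. In the hPSC library it stood at 27.9 CPM in low-mitochondrial cells against 25.7 CPM (0.12, -0.51 to 0.68).

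**Figure D3:**
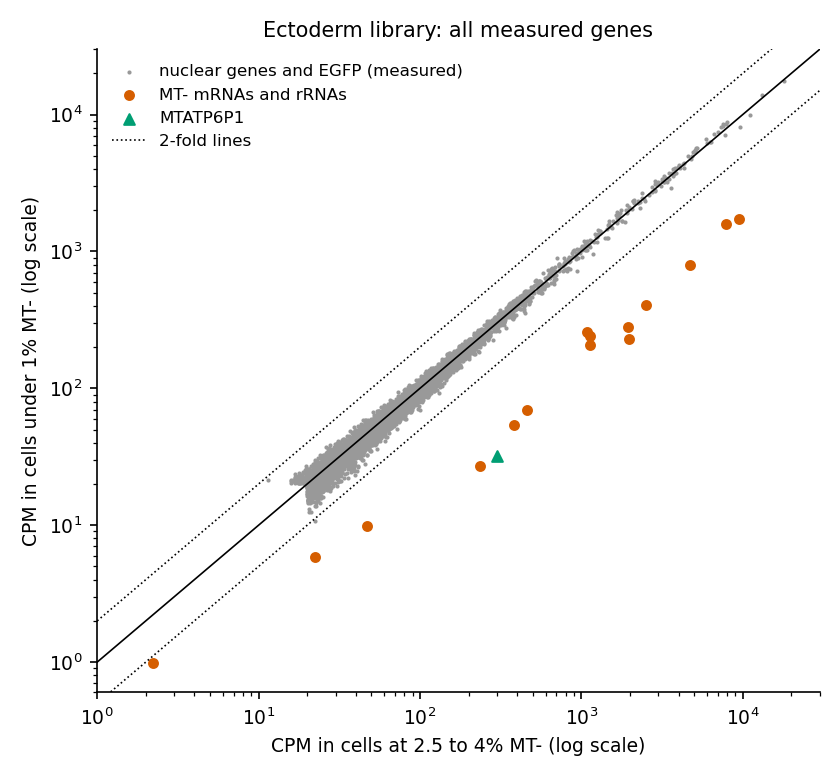
CPM in ectoderm cells under 1% MT- UMIs (y axis, log scale) against CPM in cells at 2.5 to 4% (x axis, log scale) for all 5990 measured genes (grey) and for the mitochondrial mRNAs and ribosomal RNAs (orange); the solid line marks equal levels and dotted lines 2-fold. The grey genes stay between the dotted lines except for MTATP6P1 (green triangle), which lies among the mitochondrial genes, and NSUN2 just past the lower line.

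Nuclear-retained RNAs in sum were lower in the low-mitochondrial cells over the whole library, but less so, or not, within clusters of like cells. The log2 ratio of their sum was -0.26 over all cells and 0.05, -0.14, -0.08 and -0.08 within the 4 clusters described below. Cluster 3, the poorest in MALAT1, held 39.8% of the low-mitochondrial cells and 19.4% of the cells at 2.5% to 4%. The sum was mostly MALAT1, with 24580 of 25671 UMIs in low-mitochondrial cells and 345633 of 361866 in the cells at 2.5% to 4%. The other members were not compared within clusters. The list holds long noncoding RNAs that stay in the nucleus, at chromatin or in nuclear speckles and paraspeckles. Of its 10 genes, 8 were measured, 0 passed the 2-fold rule and 0 had a log2 ratio above 0 (median -0.31). Over all measured genes 0.0334% passed, 39.1% were above 0 and the median was -0.05, so here and for every list below a count of 0 past the rule is what the background gives and nothing is read from it. MALAT1, the most abundant RNA of nuclear speckles, made up 0.805% of the UMIs outside MT- genes in low-mitochondrial cells (0.795 to 0.815%) and 0.959% in the cells at 2.5% to 4% (0.956 to 0.963%). Each of the 462 and 6619 cells had MALAT1 UMIs. The medians over cells were 0.806% and 0.891%, and the quartiles overlapped widely, 0.455 and 1.14% against 0.575 and 1.28%.

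Among the other members, FTX, a long noncoding RNA of the X-inactivation centre, stood at 69.7 against 99.7 CPM (-0.52, -0.72 to -0.32). KCNQ1OT1, the antisense RNA of an imprinted domain, stood at 59.9 against 80.8 CPM (-0.43, -0.65 to -0.21). NEAT1, the scaffold of paraspeckles, was closest to equal, at 63.5 against 65.8 CPM (-0.05, -0.27 to 0.16). FTX followed the MT- share along the range, with 63.0 CPM in cells under 0.5%, 73.8 at 0.5 to 1%, 80.7 at 1 to 1.5%, 85.4 at 1.5 to 2.5%, 99.7 at 2.5 to 4%, 112 at 4 to 6% and 112 CPM at 6% and over. MALAT1 did not: it was at 0.741% under 0.5% and 0.843% at 0.5 to 1%, and then between 0.893% and 0.959% in all bins from 1% upwards. In hPSC 1 of 8 measured members was above 0, and the list's median was -0.18.

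Nuclear-speckle and chromatin genes lay on the same side. Here the genes encode proteins that work in the nucleus. The lists were not matched for transcript length, which also went with the log2 ratios, as described below. Of 28 measured splicing regulators 0 passed and 4 were above 0 (median -0.12), and of 31 chromatin and nuclear regulators 0 passed and 2 were above 0 (median -0.15), beside 0.0334% past the rule and 39.1% above 0 over all measured genes. SETD2, which places a methyl mark on histone H3 in transcribed genes, stood at 27.8 CPM in low-mitochondrial cells against 45.4 CPM (-0.71, -1.04 to -0.39). EZH2, the catalytic subunit of Polycomb repressive complex 2, stood at 22.9 against 31.2 CPM (-0.44, -0.81 to -0.10), and DNMT1, the maintenance DNA methyltransferase, at 112 CPM in both (-0.00, -0.17 to 0.15). NKTR, a cyclophilin of the splicing machinery, stood at 86.1 against 113 CPM (-0.39, -0.57 to -0.21). SNHG14, the long host transcript of a snoRNA cluster in the Prader-Willi region, stood at 957 against 1176 CPM (-0.30, -0.35 to -0.24), while SNHG29, another snoRNA host, stood at 2365 against 2117 CPM (0.16, 0.12 to 0.19).

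Cytosolic ribosomal protein genes made up slightly more of the RNA. Their 79 genes held 26.03% of the UMIs outside MT- genes in low-mitochondrial cells and 25.1% in the cells at 2.5% to 4% (log2 ratio of the sums 0.05). Within the 4 clusters described below this log2 ratio was smaller, at 0.02, 0.03, 0.03 and 0.01. Over cells the medians were 25.9% and 25.1%, with quartiles of 24.2 and 27.2% and of 23.5 and 26.7%. Of the 79, 0 passed the rule, 50 were above 0 and the median was 0.04. The share ran from 26.4% under 0.5% through 25.8% at 0.5 to 1%, 25.6% at 1 to 1.5%, 25.5% at 1.5 to 2.5% and 25.1% at 2.5 to 4% to 24.96% at 4 to 6%, and was 25.5% in cells at 6% and over.

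The ribosomal proteins did not all lie on one side. RPL13A, of the large subunit, stood at 2888 CPM in low-mitochondrial cells against 3586 CPM (-0.31, -0.34 to -0.28), and RPL7 at 1251 against 1443 CPM (-0.21, -0.25 to -0.16). FAU, which encodes a fusion of a ubiquitin-like protein with a small-subunit protein, stood at 2020 against 1751 CPM (0.21, 0.17 to 0.24), and RPL12 at 8538 against 7583 CPM (0.17, 0.15 to 0.19). RPL13A was between 2854 and 2896 CPM in the 3 bins below 1.5%, and at 3015, 3586, 3907 and 3707 CPM in the 4 bins above. In hPSC RPL13A was again below 0 (-0.13, -0.18 to -0.07) and FAU above (0.10, 0.03 to 0.17). Ribosomal protein genes have many processed pseudogenes, and how the counting divided such reads was not tested.

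Nuclear transcripts of oxidative phosphorylation and of mitochondrial ribosomal proteins, each taken as a set, were not lower with the mitochondrial RNAs. The nuclear-encoded subunits of oxidative phosphorylation together held 2.43% of the UMIs outside MT- genes in low-mitochondrial cells and 2.24% in the cells at 2.5% to 4% (log2 ratio 0.12). Within clusters this log2 ratio was smaller, at 0.10, 0.10, 0.07 and 0.07. Of 36 measured complex I genes 0 passed and 29 were above 0 (median 0.12), and of 40 genes of complexes II to V 0 passed and 34 were above 0 (median 0.11). NDUFA11, an accessory subunit of complex I, stood at 140 against 117 CPM (0.26, 0.12 to 0.41), and UQCR10, a subunit of complex III, at 436 against 378 CPM (0.21, 0.13 to 0.29). At the other end, NDUFS1, the largest subunit of complex I, stood at 36.3 against 44.9 CPM (-0.30, -0.59 to -0.03), and ATP5F1A, the alpha subunit of ATP synthase, at 335 against 367 CPM (-0.13, -0.22 to -0.04). Of 71 measured mitochondrial ribosomal protein genes 56 were above 0 (median 0.09). The mitochondrially encoded mRNAs had a summed log2 ratio of -2.49, which the choice of cells set in advance. That no measured nuclear-encoded subunit passed 2-fold is what the background of 0.0334% gives, so nothing is read from this contrast.

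Genes for mitochondrial DNA maintenance lay near equal levels, while some that process mitochondrial RNA were lower by less than 2-fold. Of 7 measured genes for mitochondrial DNA maintenance and transcription 0 passed (median 0.01). TFAM, which packages mitochondrial DNA and starts its transcription, stood at 91.7 CPM in low-mitochondrial cells against 91.4 CPM (0.01, -0.18 to 0.18). Of 12 measured genes of mitochondrial RNA processing 0 passed, the median was -0.04, and 3 intervals lay below 0 and 0 above. LRPPRC, which with SLIRP stabilises mitochondrial mRNAs, stood at 96.6 against 121 CPM (-0.33, -0.51 to -0.16), and SLIRP at 270 against 254 CPM (0.09, -0.02 to 0.19). GRSF1, a protein of mitochondrial RNA granules, stood at 72.7 against 90.7 CPM (-0.32, -0.52 to -0.12), and PNPT1, the polynucleotide phosphorylase that degrades mitochondrial RNA, at 17.7 against 25.1 CPM (-0.50, -0.93 to -0.11). In hPSC the ratios of LRPPRC (0.08), GRSF1 (0.12) and PNPT1 (0.16) were above 0, each with an interval that held 0.

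Protein import had 12 of 20 genes above 0 (median 0.06), with the import receptor TOMM70 at 31.4 against 42.0 CPM (-0.42, -0.73 to -0.12) and TIMM10, a small chaperone between the membranes, at 83.5 against 70.8 CPM (0.24, 0.05 to 0.42). Of 15 genes of mitochondrial dynamics and mitophagy 6 were above 0 (median -0.03), and of 11 citric acid cycle genes 4 were above 0 (median -0.10). The fusion protein OPA1 stood at 49.4 against 60.7 CPM (-0.30, -0.54 to -0.06), and the hypoxia-induced mitophagy receptor BNIP3 at 268 against 237 CPM (0.17, 0.07 to 0.28).

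Stress and death genes were near the background. The ATF4 response, which mitochondrial damage can switch on, had 9 measured genes with 0 past the rule (median -0.01), and ATF4 itself stood at 50.8 CPM in low-mitochondrial cells against 64.2 CPM (-0.34, -0.58 to -0.10). DDIT3, a transcription factor of that response, was below the limit for measured genes at 14.7 against 10.2 CPM (0.54, 0.06 to 0.99), from 45 and 366 UMIs, the low-mitochondrial ones in 35 cells with at most 4 from one cell. p53 targets had a median of -0.10 over 9 genes, heat shock genes of -0.04 over 15 and apoptosis genes of -0.12 over 8, each with 0 past the rule. MDM2, a p53 target and its inhibitor, stood at 47.2 against 55.2 CPM (-0.23, -0.48 to 0.02). Glycolysis had 9 of 14 genes above 0 (median 0.04), with TPI1, triosephosphate isomerase, at 1192 against 1036 CPM (0.20, 0.15 to 0.25), and GAPDH at 2326 against 2098 CPM (0.15, 0.11 to 0.18).

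**Figure D4:**
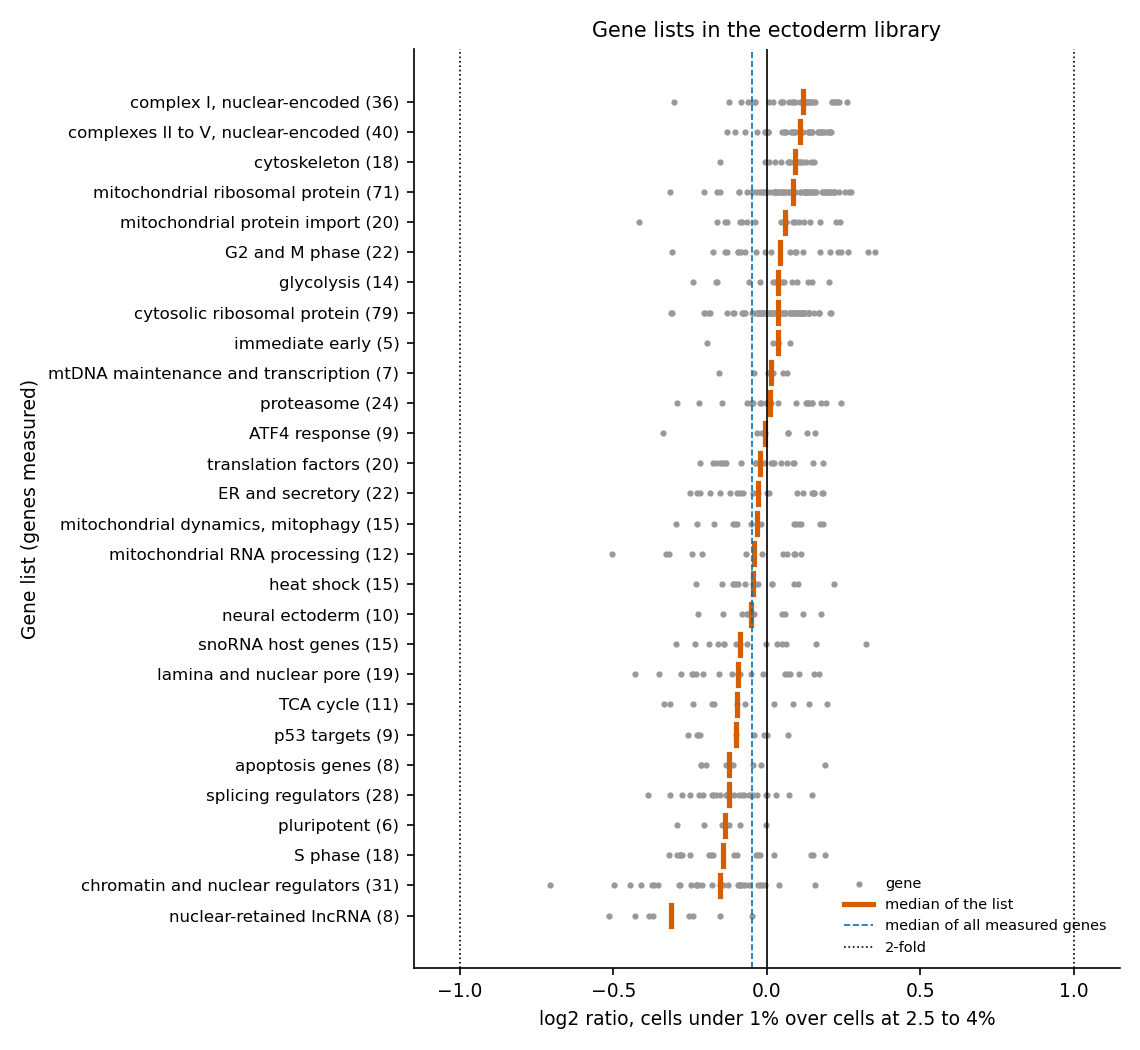
Log2 ratio, ectoderm cells under 1% MT- UMIs over cells at 2.5 to 4% (x axis), for each measured gene (grey dots) of each list with at least 5 measured genes (y axis, number in brackets); orange bars are list medians, the dashed line is the median of all measured genes and dotted lines mark 2-fold. No listed gene lies past a dotted line; the medians run from -0.31 for nuclear-retained long noncoding RNAs to 0.12 for nuclear-encoded complex I.

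Markers of cell identity differed by little, towards lower values. The 10 measured neural ectoderm markers had a median of -0.05, that of all measured genes, and their sum a log2 ratio of -0.08 (-0.11 to -0.05). SOX2, a neural and pluripotency transcription factor, stood at 514 CPM in low-mitochondrial cells against 538 CPM (-0.07, -0.14 to 0.01), and SIX3, which encodes a forebrain and eye field transcription factor, at 434 against 453 CPM (-0.06, -0.15 to 0.02). Of 6 pluripotency genes 0 were above 0 (median -0.13), 4 had intervals below 0, and their sum stood at -0.13 (-0.16 to -0.10). POU5F1 stood at 498 against 499 CPM. Markers of other cell types were rare in both sets. Neural crest markers summed to 7.20 CPM in low-mitochondrial cells against 7.69 CPM, amnion to 13.8 against 13.8 CPM, mesoderm to 4.58 against 6.36 CPM, endoderm to 0.655 against 1.25 CPM and mesenchyme to 71.1 against 63.6 CPM, most of it TAGLN, an actin-binding protein (51.7 against 42.4 CPM). Surface ectoderm markers summed to 304 against 328 CPM and neuron markers to 25.5 against 21.6 CPM. In the low-mitochondrial cells 3 of 6 neural crest, 2 of 5 amnion, 2 of 5 mesoderm, 4 of 5 endoderm, 3 of 6 mesenchyme, 3 of 6 surface ectoderm and 1 of 6 neuron markers were at 0. All 6 blood and endothelium markers had 0 UMIs in low-mitochondrial cells and 5 UMIs in sum in the cells at 2.5% to 4%. The EGFP transgene held 0.444% of UMIs outside MT- genes in low-mitochondrial cells and 0.433% in the cells at 2.5% to 4%, and 446 of 462 and 6205 of 6619 cells had EGFP UMIs.

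Cell cycle genes differed by little. S phase genes held 0.178% of UMIs outside MT- genes in low-mitochondrial cells and 0.191% in the cells at 2.5% to 4%, with 4 of 18 genes above 0 (median -0.14). G2 and M phase genes held 0.494% and 0.460%, with 12 of 22 above 0 (median 0.04). The list was led by UBE2C, the ubiquitin-conjugating enzyme of the anaphase-promoting complex, at 896 CPM in low-mitochondrial cells against 702 CPM (0.35, 0.29 to 0.41), and CENPA, the centromeric histone, at 81.5 against 64.8 CPM (0.33, 0.14 to 0.52). Its low end held KIF20B, a mitotic kinesin, at 59.9 against 74.3 CPM (-0.31, -0.53 to -0.09), and CENPF at 263 against 297 CPM (-0.18, -0.28 to -0.07). UBE2C stood at 869 CPM under 0.5%, 912 at 0.5 to 1%, 853 at 1 to 1.5%, 804 at 1.5 to 2.5%, 703 at 2.5 to 4%, 645 at 4 to 6% and 631 CPM at 6% and over, and was above 0 in hPSC too (0.20, 0.09 to 0.30).

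Small differences were ordered by the length of the transcript. The genes were split into 5 groups of like size by their longest annotated transcript (GENCODE v29), for 5988 of 5989 measured genes other than EGFP. From the shortest to the longest group the median log2 ratio was 0.08, 0.00, -0.06, -0.11 and -0.16, and the percentage of genes above 0 was 71.0%, 49.5%, 33.7%, 24.9% and 16.1%. Across genes, the Spearman correlation with transcript length was -0.47, with the span of the gene -0.38 and with GC content 0.32. Genes are not independent replicates and these properties go together. The gene lists above were set beside all measured genes and not beside genes of like transcript length. How far length accounts for the list medians, in either direction, was not tested.

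To follow this over cells, UMIs were summed over the 1182 shortest and the 1182 longest genes, with ribosomal protein genes left out. Genes with transcripts up to 2013 bases held 22.7% of UMIs outside MT- genes in low-mitochondrial cells and 21.5% in the cells at 2.5% to 4%. Genes with transcripts of 6336 bases or more held 9.48% and 10.4%. The ratio of short over long was 2.39 in low-mitochondrial cells and 2.06 in the cells at 2.5% to 4% (log2 ratio 0.21). Over cells the medians of the long share were 9.58% and 10.3%, with quartiles of 8.37 and 10.6% and of 9.19 and 11.5%. The long share was 9.22% under 0.5%, 9.63% at 0.5 to 1%, 9.95% at 1 to 1.5%, 10.1% at 1.5 to 2.5%, 10.4% at 2.5 to 4%, 10.6% at 4 to 6% and 10.5% at 6% and over, with no step at 1%.

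**Figure D5:**
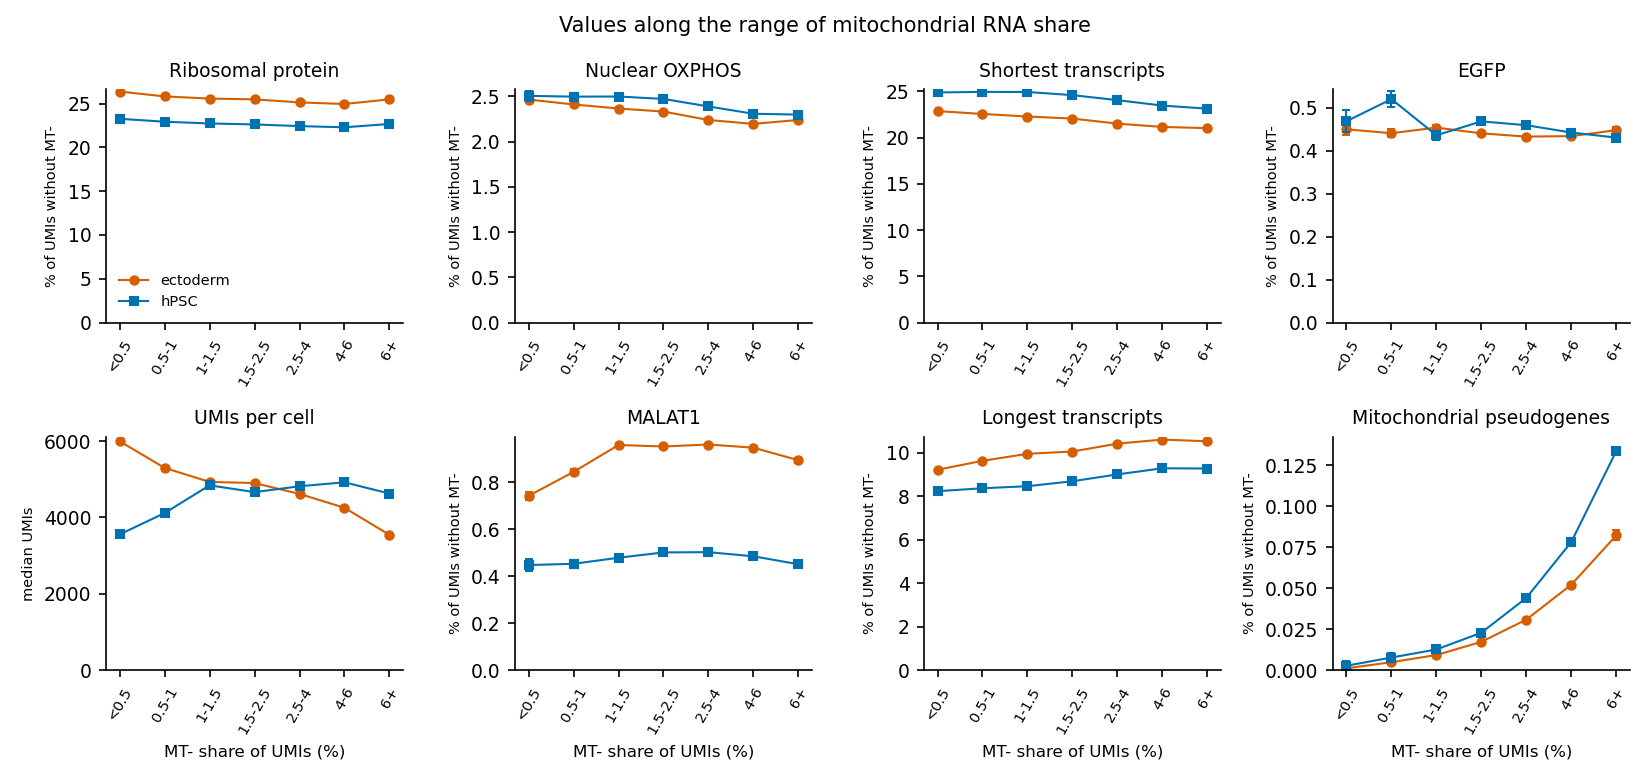
Percent of UMIs outside MT- genes, or median UMIs per cell (y axes, each from 0), in 7 bins of MT- share (x axis) in the ectoderm (orange circles) and hPSC (blue squares) libraries; bars are 95% intervals for counting error. In ectoderm the longest transcripts run from 9.22% to 10.5% and mitochondrial pseudogenes from 0.00114% to 0.0822% from the lowest to the highest bin, and the median UMIs per cell from 5994.5 to 3544.

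No named gene at either end stood far from the rest, except the pseudogene. The 15 lowest genes at 50 CPM or more were, after MTATP6P1, MBTD1 (-0.58), WAPL (-0.56), PHF3 (-0.53), FTX (-0.52), NUFIP2 (-0.51), ANKRD17 (-0.50), VEZF1 (-0.47), PRKAA2 (-0.47), MTX3 (-0.45), ZNF638 (-0.45), TRIP12 (-0.45), UTRN (-0.45), SLC4A7 (-0.44) and KCNQ1OT1 (-0.43). MBTD1, a histone-binding subunit of the NuA4/TIP60 acetyltransferase, stood at 36.0 CPM in low-mitochondrial cells against 54.0 CPM (-0.88 to -0.31). WAPL, which releases cohesin from chromatin, stood at 41.3 against 60.7 CPM (-0.83 to -0.30), and PRKAA2, a catalytic subunit of the energy sensor AMPK, at 40.9 against 56.5 CPM (-0.74 to -0.20). UTRN, which encodes the large cytoskeletal protein utrophin, stood at 71.1 against 96.8 CPM (-0.65 to -0.25). MBTD1 was at 38.5 CPM under 0.5% and 34.5 CPM at 0.5 to 1%, and between 52.96 and 54.7 CPM in all bins from 1% upwards.

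The 15 highest were CABIN1 (0.43), TNFRSF12A (0.40), ZNF593 (0.39), PTPMT1 (0.36), SMDT1 (0.35), UBE2C (0.35), BLVRB (0.35), LINC01356 (0.35), SMIM8 (0.35), LYPLA2 (0.33), AGTRAP (0.33), CENPA (0.33), SCGB3A2 (0.32), AAMDC (0.31) and HLA-DPB2 (0.31). Among these, PTPMT1, a phosphatase of cardiolipin synthesis in the inner mitochondrial membrane, stood at 52.7 CPM in low-mitochondrial cells against 41.1 CPM (0.11 to 0.59). SMDT1, the small regulatory subunit of the mitochondrial calcium uniporter, stood at 93.7 against 73.4 CPM (0.17 to 0.53). All differences at these ends except that of MTATP6P1 stayed under 2-fold. Of the most abundant cytoskeletal RNAs, TMSB4X, which encodes an actin-sequestering peptide, stood at 9982 against 11095 CPM (-0.15, -0.17 to -0.14), while 16 of the 18 cytoskeletal genes were above 0 (median 0.09). Of the remaining lists, each with 0 genes past the rule, translation factors had 9 of 20 genes above 0 (median -0.02), proteasome 13 of 24 (0.01), the secretory pathway 10 of 22 (-0.03), nuclear lamina and pore 6 of 19 (-0.10), snoRNA hosts 5 of 15 (-0.09) and immediate early genes 4 of 5 (0.04).

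The low-mitochondrial cells were spread over all clusters, but unevenly. Clustering with MT- genes left out gave 4 clusters, which are only numbered here. Cluster 3 held 184 low-mitochondrial cells among its 3441 cells, 5.35% (4.62 to 6.15%), and clusters 0, 1 and 2 held 1.58%, 2.40% and 2.29%. Cluster 3 thus held 39.8% of the low-mitochondrial cells and 19.4% of the cells at 2.5% to 4%. It was the cluster with the most UMIs, a median of 7922 per cell against 3549 to 5070 in the others, and with the least MALAT1, 6591 CPM against 8846 to 12386. When the MT- genes were kept in the clustering, 1 cluster took 418 of the 462 low-mitochondrial cells. That clustering used the values by which the cells were chosen, so nothing is read from it.

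The low-mitochondrial cells were also set against cells at 2.5% to 4% of their own cluster. They differed less than over all cells in each sum below and in the difference by transcript length. Summed nuclear-retained RNA was mostly MALAT1, and its values for clusters 0 to 3 are given above. For nuclear-encoded oxidative phosphorylation the log2 ratio of the sum was 0.10, 0.10, 0.07 and 0.07, and for ribosomal protein 0.02, 0.03, 0.03 and 0.01. The median log2 ratio of the shortest transcripts lay above that of the longest by 0.13, 0.15, 0.17 and 0.13. Over all cells of the 2 sets these medians were 0.08 and -0.16. In cluster 3, with 184 low-mitochondrial cells, 1 gene was higher and 0 were lower by the 2-fold rule, with mitochondrial pseudogenes left out. MTATP6P1 was thus not counted in any cluster. The smaller sets of 52 to 116 cells gave more calls, up to 193 higher and 322 lower with 52 cells. How much of those counts is counting noise was not tested.

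The guide amplicon library gave the targeted gene of part of the cells. A cell was assigned when exactly 1 guide had at least 20 amplicon UMIs, which held for 124 of 462 low-mitochondrial cells (26.8%, 22.9 to 31.1%) and for 1503 of 6619 cells at 2.5% to 4% (22.7%, 21.7 to 23.7%). A median of 129 amplicon UMIs was found in low-mitochondrial cells and of 92 in the cells at 2.5% to 4%. At least 2 guides passed in 9.31% (6.82 to 12.3%) of low-mitochondrial cells against 4.77% (4.27 to 5.32%), beside their larger numbers of UMIs. The part of cell doublets in these values was not tested. In the 44 cells under 0.1%, 6 cells were assigned (13.6%, 5.17 to 27.4%).

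Counted by target, 55 of 1362 cells with guides against mitochondrial proteins were low-mitochondrial, 4.04% (3.06 to 5.22%), against 66 of 2165 cells with other targets, 3.05% (2.37 to 3.86%), and 3 of 159 cells with non-targeting guides, 1.89% (0.391 to 5.41%). These intervals overlapped, and the cells share 1 library, for which the labels name no separate cultures. Among the 28 targets with at least 50 assigned cells, the non-targeting group left out, the share ran from 0 to 9.23%, beside 3.36% over all assigned cells. The highest were GTF2F1, a subunit of the general transcription factor TFIIF, with 6 of 65 cells (3.46 to 19.0%), TST, a mitochondrial sulfurtransferase, with 5 of 59 cells (8.47%, 2.81 to 18.7%), and ALDH4A1, a mitochondrial enzyme of proline breakdown, with 7 of 83 cells (8.43%, 3.46 to 16.6%). For 2 of the 28 the interval left out 3.36%, and 3 of the 28 had no low-mitochondrial cell. These were LAMB1, a laminin chain, with 64 cells (upper limit 5.601%), HACL1, a peroxisomal enzyme of fatty acid alpha-oxidation, with 53 cells (6.72%), and PCCA, a subunit of mitochondrial propionyl-CoA carboxylase, with 50 cells (7.11%).

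The same rule in the hPSC library took 184 of 15333 cells, 1.20% (1.03 to 1.39%), set there against 4928 cells at 2.5% to 4%. In contrast to ectoderm these cells were shallower, with a median of 4007.5 UMIs against 4817.5. Of 6102 measured genes 9 were higher (0.147%) and 16 lower (0.262%). MTATP6P1 was the lowest again, at 56.9 CPM in low-mitochondrial cells against 431 CPM (-2.92, -3.34 to -2.53). The other 15 lower genes had 8 to 24 UMIs in the low-mitochondrial cells.

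The highest hPSC genes rested on few cells. DDIT3 had 20 UMIs in low-mitochondrial cells against 118 (21.5 against 4.49 CPM, log2 ratio 2.26, 1.49 to 2.95), and ATF5, another transcription factor of the ATF4 response, had 20 against 113 UMIs (2.32, 1.56 to 3.01). A single cell held 11 of the 20 DDIT3 UMIs, 12 of the 20 ATF5 UMIs, 16 of the 24 UMIs of HMOX1, which encodes heme oxygenase, and 12 of the 25 UMIs of GADD45G, a stress-induced growth arrest gene. Leaving out, for each gene, the cell with most of its UMIs, 2 of the 9 stayed past the rule, DOHH (1.08) and MKS1 (1.03). DDIT3 (1.11), ATF5 (1.01) and TMEM99 (1.36) then lay under 20 CPM in both sets, and HMOX1 stood at -0.23. In ectoderm ATF5 stood at 2.95 CPM in low-mitochondrial cells against 5.16 CPM (-0.81, -1.96 to 0.15).

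The small differences had the same sign in both libraries more often among abundant genes. With MT- genes and mitochondrial pseudogenes left out, 3357 of 5378 genes at 20 CPM or more had the same sign (62.4%), and 181 of 223 genes at 500 CPM or more (81.2%). Pearson's correlation of the log2 ratios across genes was 0.24 for the first and 0.76 for the second, a description of genes that share chemistry, counting and depth. The order by transcript length was also present in hPSC: from the shortest to the longest group the medians were 0.05, 0.01, -0.04, -0.06 and -0.13, and the ratio of short over long was 2.99 in low-mitochondrial cells and 2.67 in the cells at 2.5% to 4% (log2 ratio 0.16). Ribosomal protein held 23.0% and 22.4% there, nuclear-encoded oxidative phosphorylation 2.498% and 2.39%, and MALAT1 0.451% and 0.502%.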

How the data were processed

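The authors deposited raw UMI counts, by gene and by cell, for 1 ectoderm and 1 hPSC library, and tables of guide amplicon reads. Guide UMIs were counted here from those reads, as distinct UMI sequences per cell and guide, with no correction of sequence errors. The alignment tools STARsolo and STAR and the build GRCh38 are known per the submitters' processing notes. Tool versions, annotation release, strand setting and cell filter: not given in the sources used here. All deposited barcodes were kept, no doublet caller was run, and no barcode fell below 1000 UMIs or 500 genes. Counts were summed over cells and divided by totals without MT- genes (CPM). Log2 ratios have exact conditional binomial 95% intervals, shares Clopper-Pearson intervals, with a floor of 3 counts for zeros. With 1 library per state there are no replicates and no p-values; the labels do not name separate cultures. The rule of size was 20 CPM or more in at least 1 set and a log2 ratio of 1 or more. The genes named were the 15 highest and 15 lowest at 50 CPM or more, up to 3 from each end of every gene list, and all mitochondrial mRNAs and rRNAs; genes named outside this rule were chosen after their values were seen. Members and lists were chosen with earlier results of these data known. Cells were clustered with scanpy 1.11.5 (2000 variable genes, 30 components, 15 neighbours, Leiden resolution 0.5), and guides were assigned at 20 UMIs. Gene positions and lengths came from GENCODE v29, matched by Ensembl ID. No outcome of a test of the gene ratios on simulated data is reported here. Python 3.11.15, numpy 2.4.6, pandas 2.3.3, scipy 1.17.1 and matplotlib 3.10.9 were used. Other cell sets, totals and minimum levels were tried as alternatives. The hPSC guide amplicon table was not used here.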

Additional observations from a re-analysis of the deposited data

How the results depend on the processing

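No paired analysis was possible because each state is 1 library and the results come from no test between samples. With cells under 0.5%, 158 cells remained and 1 gene was higher and 23 lower by the 2-fold rule; the higher one, DDIT3, was also the 1 listed gene past it. A threshold of 1.5% gave 1249 members. The count of 2 lower genes became 1, with NSUN2 lost, with reference cells at 1.5 to 2.5%, with every cell weighted equally, with ratios centred on their median and at a minimum of 50 CPM. With cells at 0.5 to 1% it stayed at 2, with NSUN2 lost and CCDC174 past the rule. It became 1, with MTATP6P1 lost, without mitochondrial pseudogenes, a setting added after seeing the data. With no minimum CPM, where genes with few UMIs entered, 1281 genes were higher and 849 lower. The log2 ratio of nuclear-retained RNA (-0.26) was -0.37 with cells under 0.5%, -0.19 with cells at 0.5 to 1%, -0.24 with reference cells at 1.5 to 2.5%, -0.18 with 1848 reference cells matched on UMIs and -0.18 with equal weights. In the same order, that of ribosomal protein (0.050) was 0.070, 0.039, 0.030, 0.039 and 0.042. The ratio of short over long transcripts (0.21) was 0.26, 0.18, 0.13, 0.19 and 0.19. For nuclear-encoded oxidative phosphorylation (0.12) it was 0.14, 0.11, 0.060, 0.11 and 0.11. These last 2 sets of alternatives, the MT- clustering and the top-cell count were added after seeing the data. With MT- genes kept in the clustering, which are the values that chose the cells, 1 cluster held 8.43% low-mitochondrial cells in place of 5.35%. The 9 higher genes in hPSC became 2 without each gene's top cell. Of 1576 values of single genes under the alternatives, 1463 moved by less than their interval and 86 had the other sign. Of 256 list medians, 31 had the other sign. The causes were not tested. Counting error limits a typical gene's log2 ratio to an interval 0.50 wide in ectoderm and 0.90 wide in hPSC.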
